A study of Homo sapiens with 6 samples.

Results

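The mouse genes of 5 matrix metalloproteinases (Mmp2, Mmp3, Mmp12, Mmp13 and Mmp14) and 3 genes of their tissue inhibitors (Timp1, Timp2 and Timp3) were measured in A549 tumours grown under the skin of nude mice. These 8 genes were chosen by Ensembl ID from the 77134 rows of the count table, and each had exactly 1 row. A549 is a human lung adenocarcinoma cell line. The 3 vector control tumours came from cells infected with the empty lentiviral vector pLV-CMV-EGFP-Neo, and the 3 HIF1A-AS3 overexpression tumours from cells infected with pLV-CMV-HIF1A-AS3-EGFP-Neo. Both groups therefore carried a lentiviral EGFP and neomycin resistance cassette, and both grew in BALB/c nude hosts, which lack a thymus and so have few mature T cells. HIF1A-AS3 is a human antisense RNA of the HIF1A locus.

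Every row of the table carried a mouse gene ID, although the samples were labelled as human. The values below therefore describe host cells inside the tumours, together with A549 RNA where its sequence was close enough to be assigned to the mouse gene. The metalloproteinases and TIMPs of the A549 cells themselves were not analysed here. Markers of fibroblasts, macrophages and other host cells could not be looked up either, because no table used here pairs mouse IDs with symbols. In RNA from whole tumours, fewer cells of a type and less RNA per cell cannot be told apart.

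Matrix metalloproteinases are zinc-dependent enzymes that cut collagens and other proteins outside the cell. Most are secreted as inactive precursors, and activation removes a propeptide that blocks the active site. TIMPs bind the active site and inhibit the enzyme. The 2 families also work together: at the cell surface, a complex of MMP14 with TIMP2 captures the precursor of MMP2 for activation. In tumours these genes are expressed largely by stromal fibroblasts and by infiltrating myeloid cells.

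The 6 libraries held 4167784 to 4769157 estimated counts, and all 8 genes passed the filter on low counts, as did 12637 genes in all. Levels are given as CPM, counts scaled by library total and by TMM, a factor that corrects for a few genes taking a large share of the counts. Overexpression replicate 1 stood apart: its total was the highest, its TMM factor was 0.742 against 1.02 to 1.10 in the other libraries, and it detected the smallest number of genes. Overexpression replicate 2 was closer to the controls (mean Pearson's r of 0.951 across genes, on log2 CPM) than to its own group (0.908). The same means were 0.923 and 0.920 for overexpression replicate 3 and 0.903 and 0.912 for replicate 1. The labels do not say whether each tumour had its own host mouse. The p-values therefore cover only the variation among these 6 libraries, which may be partly technical. The closest libraries, controls 1 and 3, still differed by 3.88 times the sampling variance, so no library was counted as a repeat sequencing of another. Such a check cannot tell whether libraries shared a tumour or a mouse.

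No metalloproteinase or TIMP gene changed between the groups at an adjusted p below 0.05 in edgeR's quasi-likelihood test, where 2 of 12637 genes (0.0158%) did. At an unadjusted p below 0.05 in the same test 1 of the 8 genes, Timp1, was found, beside 6.29% of all genes tested (3.58% higher and 2.71% lower in overexpression tumours). The 3 TIMP genes had positive and 4 of the 5 metalloproteinase genes negative log2 fold changes, overexpression relative to control, where 50.6% of all genes tested were positive. The median log2 fold change was 0.26 for the TIMPs and -0.35 for the metalloproteinases, against 0.01 over all genes tested. In 2 of the 8 genes, Timp1 and Timp2, the 3 overexpression libraries lay above the 3 controls, and in 0 of the 8 they lay below. Groups that did not overlap in either direction made up 13.2% of all genes tested, with 6.79% higher and 6.36% lower in the overexpression libraries. These counts over 8 genes are too small to set the group apart from that background.

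**Figure D1:**
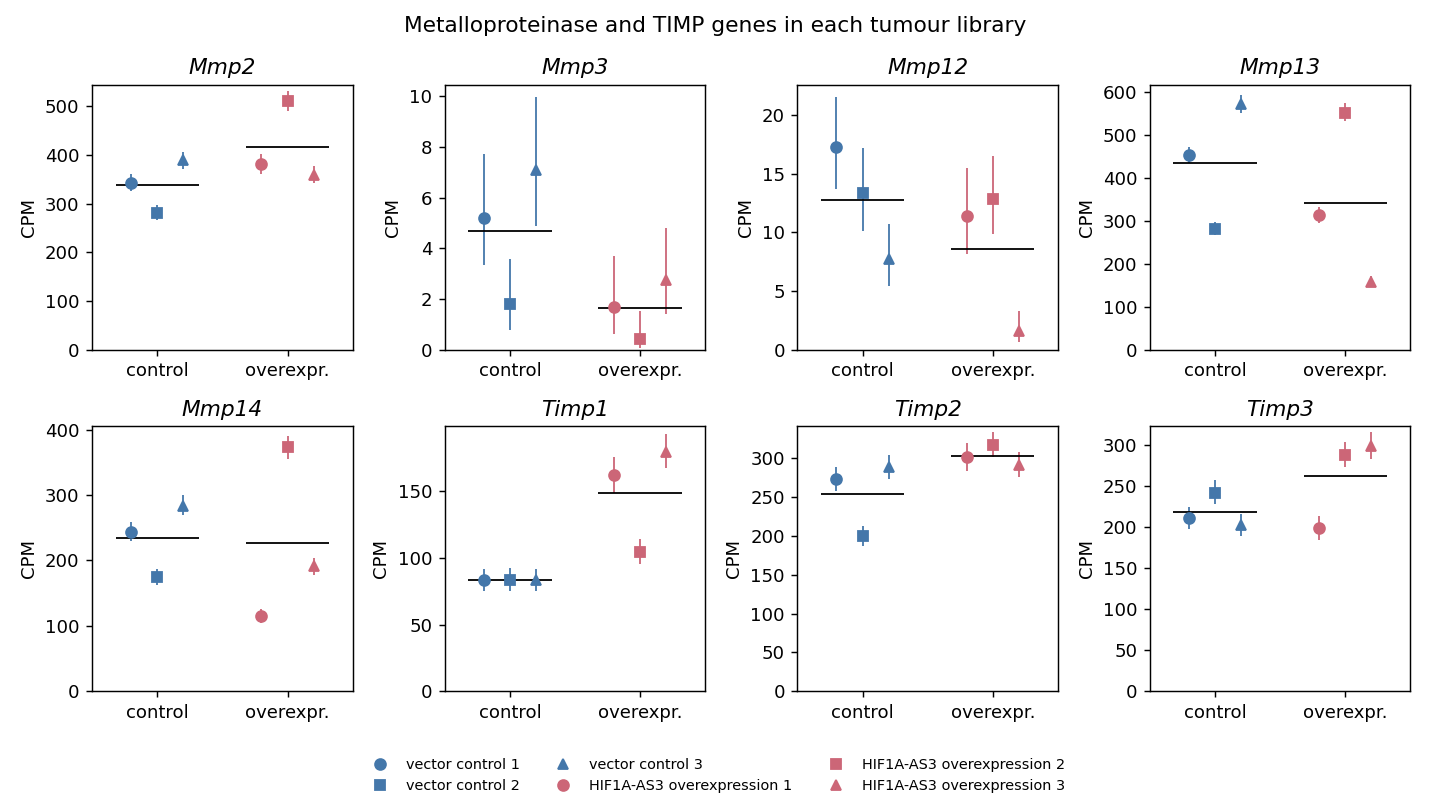
CPM (vertical axis, from 0, own scale for each gene) of the 8 genes in the 3 vector control and 3 HIF1A-AS3 overexpression libraries. Points are libraries with their 95% Poisson counting interval, and horizontal lines are group means; only in the Timp1 and Timp2 panels do all 3 overexpression points lie above all 3 control points.

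Timp1 (ENSMUSG00000001131) encodes a secreted inhibitor of most soluble metalloproteinases. It had 384, 370 and 387 estimated counts in controls 1, 2 and 3, and 570, 495 and 781 in overexpression replicates 1, 2 and 3. On the CPM scale these were 83.0, 83.7 and 83.2 in controls and 162, 104 and 180 in overexpression tumours. On this TMM scale the groups did not overlap. Even the lowest overexpression library, replicate 2, had a counting interval (95% Poisson, 95.3 to 114 CPM) above the highest upper bound of a control (92.7 CPM). These intervals cover counting error only. Means (SD, n = 3 each) were 83.3 ± 0.350 CPM for controls and 149 ± 39.4 CPM with overexpression, a fitted ratio of 1.78 with a 95% interval of 1.25 to 2.55.

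The log2 fold change of Timp1 was 0.83 (standard error 0.22) with an unadjusted p of 0.0059, the 69th smallest p among the genes tested. The adjusted p was 0.70, so the difference did not pass the threshold across all genes. The controls were tighter than counting error alone would make them on average, with a coefficient of variation of 0.42% where about 380 counts give 5.13%. Overexpression replicate 2 was the library of its group nearest to the controls and the lowest in Timp1. Without it, the log2 fold change of Timp1 was 1.04 (adjusted p = 0.080, edgeR). In that setting 2659 of 12999 genes tested had an unadjusted p below 0.05, where 795 of 12637 did with all libraries. The log2 fold change of Timp1 was 0.68 without overexpression replicate 3 (adjusted p = 0.64, edgeR) and 0.74 without overexpression replicate 1.

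Timp2 (ENSMUSG00000017466) encodes the inhibitor that, besides blocking metalloproteinases, takes part in the activation of proMMP2. It measured 273, 200 and 289 CPM in controls 1, 2 and 3 and 301, 317 and 291 CPM in overexpression replicates 1, 2 and 3. The groups did not overlap, but the lowest overexpression value and the highest control value lay within counting error of each other. The means were 254 ± 47.5 and 303 ± 13.1 CPM (SD, n = 3 each), and the log2 fold change was 0.26 (standard error 0.20, edgeR adjusted p = 0.76). With libraries scaled by their totals alone, the order changed: overexpression replicate 1 then stood at 223 CPM, below controls 1 and 3 at 298 and 315, and the groups overlapped. In the same scaling the Timp1 values did not overlap, with means (SD, n = 3 each) of 90.1 ± 1.12 CPM for controls and 136 ± 40.9 CPM with overexpression. The counting intervals of the lowest overexpression library (replicate 2, 106 CPM) and the highest control (control 3, 90.8 CPM) then overlapped.

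Timp3 (ENSMUSG00000020044) encodes the TIMP that stays bound to the extracellular matrix and also inhibits ADAM proteases. It measured 210, 242 and 202 CPM in controls 1, 2 and 3 and 198, 288 and 299 CPM in overexpression replicates 1, 2 and 3. Overexpression replicate 1 was the lowest of the 6 libraries, and the other 2 overexpression libraries were the highest. The log2 fold change was 0.26 (standard error 0.21, edgeR adjusted p = 0.76), and its interval ran from 0.855-fold to 1.69-fold.

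Mmp2 (ENSMUSG00000031740) encodes gelatinase A, which cuts denatured collagen and basement membrane collagen. It measured 343, 281 and 389 CPM in controls 1, 2 and 3 and 382, 510 and 360 CPM in overexpression replicates 1, 2 and 3. Overexpression replicate 2 was above the other 5 libraries, and overexpression replicates 1 and 3 lay within the range of the controls. The log2 fold change was 0.31 (standard error 0.22, edgeR adjusted p = 0.75). Of the 5 metalloproteinase genes it was the only one with a positive log2 fold change.

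Mmp14 (ENSMUSG00000000957) encodes the membrane-bound metalloproteinase MT1-MMP, a collagenase and the activator of proMMP2. It measured 244, 175 and 284 CPM in controls 1, 2 and 3 and 115, 373 and 191 CPM in overexpression replicates 1, 2 and 3. The overexpression group held both the highest and the lowest of the 6 libraries, a 3.26-fold range against 1.62-fold among controls. The means were 234 ± 55.3 and 226 ± 133 CPM (SD, n = 3 each), with a log2 fold change of -0.05 and an interval of 0.498-fold to 1.87-fold (edgeR adjusted p = 0.98). The sign of this near-zero difference turned with single libraries, to 0.23 without overexpression replicate 1, 0.12 without control replicate 3 and 0.05 without overexpression replicate 3, and it was -0.61 without overexpression replicate 2.

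Mmp13 (ENSMUSG00000050578) encodes collagenase 3, the main interstitial collagenase of rodents. It measured 453, 281 and 571 CPM in controls 1, 2 and 3 and 313, 552 and 158 CPM in overexpression replicates 1, 2 and 3. Overexpression replicate 3 was the lowest of the 6 libraries, while overexpression replicate 2 was second only to control 3. The means were 435 ± 146 and 341 ± 198 CPM (SD, n = 3 each), with a log2 fold change of -0.35 and a standard error of 0.45 (edgeR adjusted p = 0.85). It was -0.02 without overexpression replicate 3 and -0.88 without overexpression replicate 2.

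**Figure D2:**
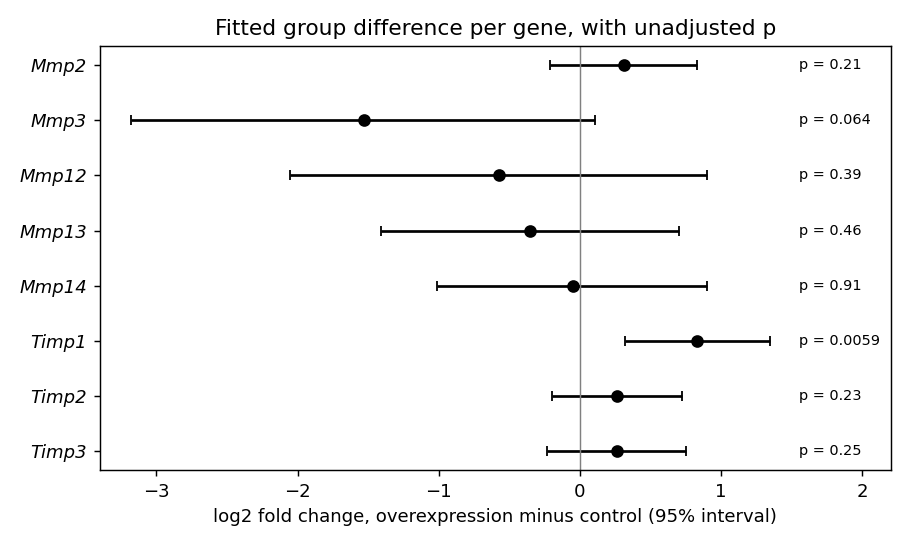
Log2 fold change of each gene, overexpression minus control (horizontal axis), from edgeR's quasi-likelihood test with its 95% interval and unadjusted p. Of the 8 intervals, that of Timp1 (0.32 to 1.35) excludes 0; the widest is that of Mmp3 (-3.18 to 0.11).

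Mmp3 and Mmp12 had few counts, and their values are correspondingly uncertain. Mmp3 (ENSMUSG00000043613) encodes stromelysin 1, which cuts many matrix proteins and activates other proMMPs. It had 24, 8 and 33 estimated counts in controls 1, 2 and 3 and 6, 2 and 12 in overexpression replicates 1, 2 and 3. The lowest control, replicate 2, fell within the range of the overexpression libraries, and 2 counts have a 95% Poisson interval of 0.242 to 7.22 counts. The means were 4.70 ± 2.68 and 1.63 ± 1.17 CPM (SD, n = 3 each), with a log2 fold change of -1.53, a standard error of 0.71 and an edgeR adjusted p of 0.70. This was the most negative log2 fold change among the 8 genes, and it was -2.19 without overexpression replicate 3, -1.05 without overexpression replicate 2, -1.91 without control replicate 2 and -1.10 without control replicate 3.

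Mmp12 (ENSMUSG00000049723) encodes macrophage elastase, a protease made mainly by macrophages. It had 80.5, 58.8 and 36.3 estimated counts in controls 1, 2 and 3 and 40.3, 61.1 and 7.42 in overexpression replicates 1, 2 and 3. Only overexpression replicate 3 lay below the control range. The means were 12.8 ± 4.81 and 8.61 ± 6.11 CPM (SD, n = 3 each), and the log2 fold change of -0.57 had a standard error of 0.63 (edgeR adjusted p = 0.82). It was -0.08 without overexpression replicate 3, -1.01 without overexpression replicate 2 and -0.84 without overexpression replicate 1. The estimates for Mmp12 were whole to within 0.001 in 0 of 6 libraries, as were those of Mmp2, and whole in 6 of 6 for Mmp3. They were whole in 3 libraries for Timp1, 1 for Timp2, 2 for Timp3, 4 for Mmp13 and 1 for Mmp14. A non-whole estimate can arise where reads are shared out between genes of similar sequence, which was not tested for these genes. Of all genes tested, 22.2% were whole in every library.

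The libraries of the overexpression group differed from each other in different genes. Overexpression replicate 2 was the highest of its group in Mmp2, Mmp12, Mmp13, Mmp14 and Timp2 and the lowest in Mmp3 and Timp1. Overexpression replicate 3 was the highest of its group in Timp1, Timp3 and Mmp3 and the lowest in Mmp2, Mmp12, Mmp13 and Timp2. Overexpression replicate 1 was the lowest of its group in Mmp14 and Timp3. Among controls, replicate 3 was the highest and replicate 2 the lowest in the same 5 genes, Mmp2, Mmp3, Mmp13, Mmp14 and Timp2.

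**Figure D3:**
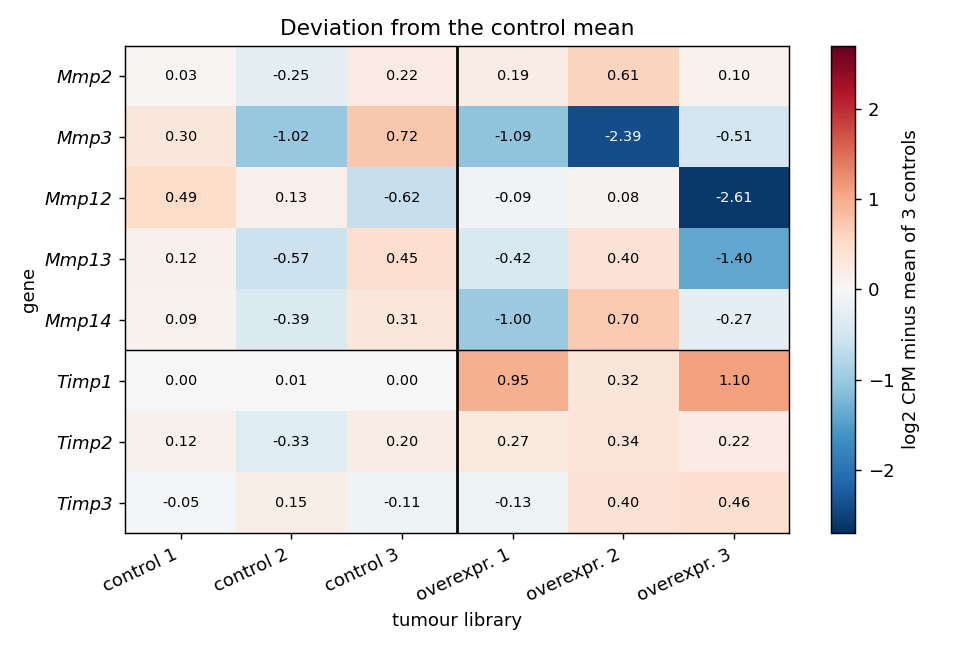
Log2 CPM of each gene (rows) in each library (columns) minus the mean of the 3 controls, red above and blue below that mean. The control columns run from -1.02 to 0.72, and the largest deviations are those of Mmp12 in overexpression replicate 3 (-2.61) and Mmp3 in overexpression replicate 2 (-2.39).

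The spread between tumours was larger in the overexpression group for 7 of the 8 genes, and for 76.4% of all genes tested. The coefficient of variation of Mmp14 was 23.6% in controls and 58.7% in overexpression tumours, and that of Mmp13 was 33.5% and 58.2%. Timp2 was the exception, with 18.7% in controls and 4.32% in overexpression tumours. That contrast depended on the scaling, since with library totals alone Timp2 had 20.1% in controls and 18.6% in overexpression tumours. Over all genes tested the median was 14.5% in controls and 26.5% in overexpression tumours. In both groups Mmp3, Mmp12, Mmp13 and Mmp14 lay above these medians, and at least 73.7% of all genes tested had a smaller coefficient of variation in the same group. That share was taken over genes of any level. Counting error adds to the spread of Mmp3 and Mmp12, whose counts were low.

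The ratio of 2 genes within a library does not depend on how the library is scaled. Gene lengths also cancel when the same ratio is compared between libraries. The ratio of Mmp2 to Timp2 counts varied little: it was 1.26, 1.41 and 1.35 in controls 1, 2 and 3 and 1.27, 1.61 and 1.23 in overexpression replicates 1, 2 and 3. The ratio of Mmp14 to Timp2 was 0.895, 0.876 and 0.983 in controls and 0.380, 1.18 and 0.655 in overexpression tumours. Overexpression replicates 1 and 3 were below the controls in this ratio and replicate 2 was above them.

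Relative to Timp1, the overexpression tumours split in the same way. This follows from values already given, since overexpression replicate 2 was highest of its group in Mmp13 and Mmp14 and lowest in Timp1. The ratio of Mmp14 to Timp1 was 2.94, 2.09 and 3.41 in controls 1, 2 and 3 and 0.707, 3.58 and 1.06 in overexpression replicates 1, 2 and 3. The ratio of Mmp13 to Timp1 was 5.45, 3.36 and 6.87 in controls and 1.93, 5.29 and 0.880 in overexpression tumours. In overexpression replicates 1 and 3 both ratios lay below the control range, and in replicate 2 they lay within or above it. Of the 15 ratios of a metalloproteinase to a TIMP, 14 overlapped between the groups. The exception was Mmp3 to Timp1, with mean ratios (SD, n = 3 each) of 0.0565 ± 0.0323 for controls and 0.00998 ± 0.00568 with overexpression, which rests on the low counts of Mmp3. These ratios were computed after the values of the genes had been seen and were not tested.

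**Figure D4:**
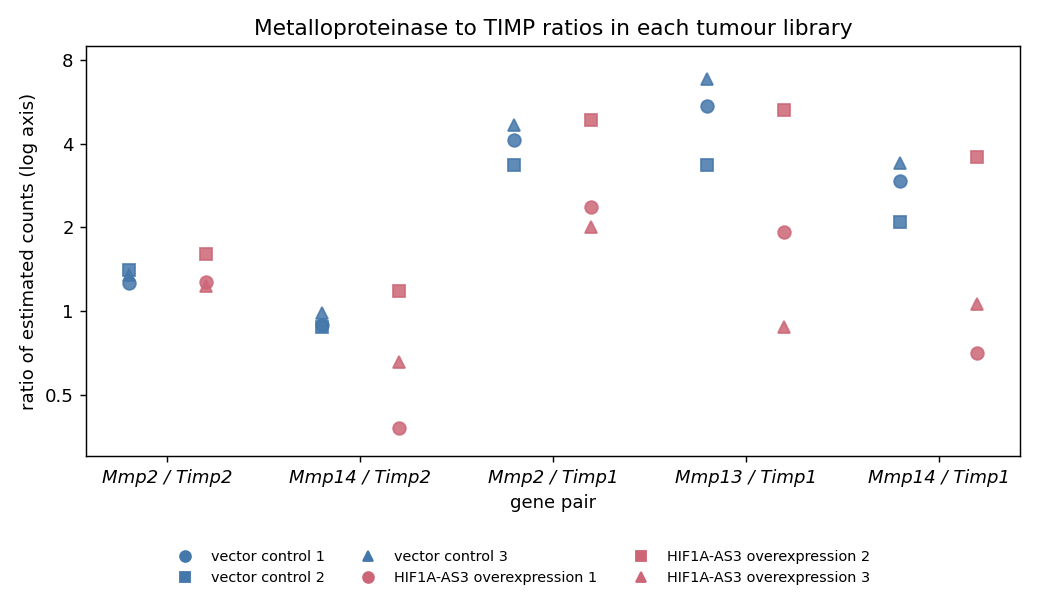
Ratio of estimated counts (log axis) for 5 pairs of a metalloproteinase and a TIMP in each library. Overexpression replicates 1 and 3 lie below the 3 controls in the pairs with Timp1, down to 0.707 for Mmp14 to Timp1, while overexpression replicate 2 lies among or above the controls.

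Over the 6 libraries, no pair of the 8 genes was correlated after adjustment for the 28 pairs compared (the smallest Benjamini-Hochberg adjusted p of Pearson's r was 0.871, exact permutation over 720 orders). The highest coefficient was that of Mmp2 with Timp2, with r = 0.86 (exact permutation p = 0.0375, adjusted p = 0.871) and Spearman's rho = 0.83 (exact permutation p = 0.0583, adjusted p = 0.847). Without the 2 libraries farthest from the median of Mmp2, overexpression replicate 2 and control replicate 2, r was 0.76 over the 4 left. The member most like Mmp12 was Mmp13, with r = 0.71 (exact permutation p = 0.119, adjusted p = 0.871) and rho = 0.14 (exact permutation p = 0.803, adjusted p = 0.899). Without overexpression replicate 3 and control replicate 3 that r was 0.37, so it rested on those libraries. The member most like Mmp14 was also Mmp13, with r = 0.62 (exact permutation p = 0.196, adjusted p = 0.871) and rho = 0.71 (exact permutation p = 0.136, adjusted p = 0.847), and r was 0.88 without overexpression replicate 3 and control replicate 3. A group of 3 libraries is too small for a correlation of its own. With 720 orders and 28 pairs, Spearman's rho of a single pair could not reach an adjusted p below 0.05, whatever its value.

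**Figure D5:**
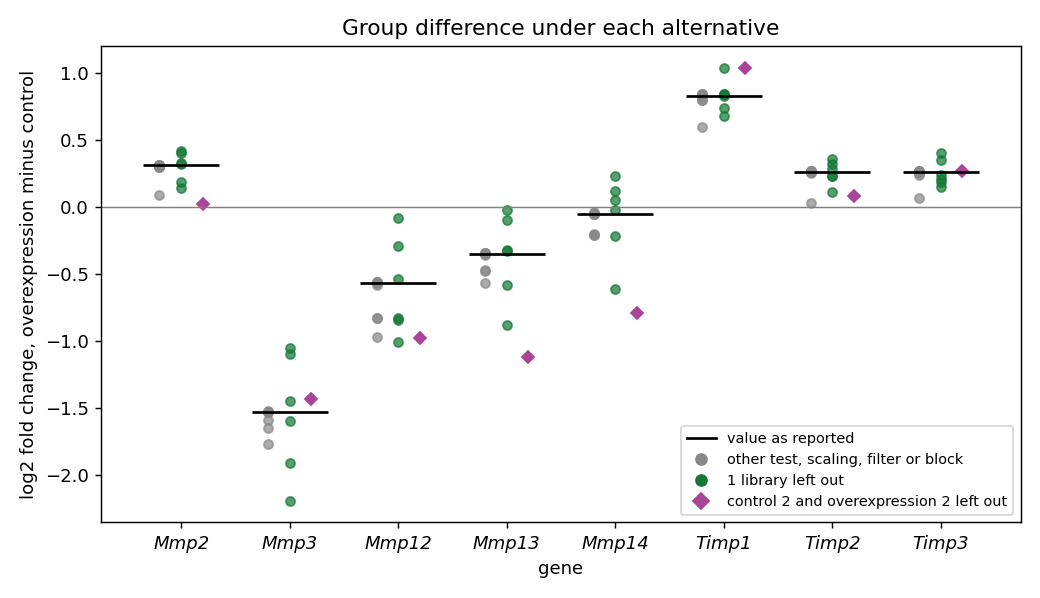
Log2 fold change, overexpression minus control, of each gene under 15 alternatives (points) beside the value as reported (black line). Timp1 stays between 0.60 and 1.04, and Mmp14 falls on both sides of 0, from -0.79 to 0.23.

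Timp1 had an unadjusted p below 0.05 under each of the 15 alternatives tried, with adjusted p values from 0.080 to 1.00. Mmp3 did under 6 of the 14 alternatives that tested it, with a smallest unadjusted p of 0.017 (edgeR, replicate block). Timp3 did under 1 of 15, without overexpression replicate 1. Mmp13 and Mmp14 also did under 1 of 15 each, with control 2 and overexpression replicate 2 both left out. Depending on the alternative, from 327 of 13014 to 2659 of 12999 genes tested had an unadjusted p below 0.05. The log2 fold change of Timp1 was 0.74 without overexpression replicate 1 (adjusted p = 1.00, edgeR) and 0.60 with libraries scaled by their totals (adjusted p = 0.73). When control 2 and overexpression replicate 2 were both left out, a setting chosen after the data were seen, the log2 fold change of Timp1 was 1.04 (adjusted p = 0.10, edgeR), that of Mmp13 -1.12 (adjusted p = 0.21) and that of Mmp14 -0.79 (adjusted p = 0.23). For Mmp13 and Mmp14 these 2 libraries were the lowest control and the highest overexpression library, so leaving them out lowers both differences by construction. For Timp1 they were the highest control and the lowest overexpression library, so leaving them out raises its difference by construction. No metalloproteinase or TIMP gene passed the threshold in that setting either, where 25 of 12747 genes tested did. An unadjusted p below 0.05 was found there for 2562 genes.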

How the data were processed

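The authors deposited 1 table of estimated counts per gene, not normalized, with 1 column per tumour, per the file header. The submitters' processing notes name the build mm10 and, with no role for each, the tools HISAT2 2.2.1, featureCounts 2.0.6, Trimmomatic 0.39, edgeR and DESeq2. The file's name points to salmon, with no version. Of its columns, 0 were unmatched. Counts were rounded and analysed in R 4.3.3. Rows were filtered with filterByExpr (defaults, minimum count 10), which kept 99.5% of counts, scaled by TMM and tested with edgeR 4.0.16 (robust quasi-likelihood F-test, group only, Benjamini-Hochberg over all genes tested). Standard errors are the log2 fold change over the square root of F. Log2 CPM used a prior count of 2, and 3 counts stand for 0.632 to 0.852 CPM. DESeq2 1.42.0 and limma 3.58.1 (voom) were alternatives. The 8 genes and lists were chosen with earlier results of these data known. All 8 genes were named by rule. Other protease genes and cell type markers listed by symbol were not analysed here, since 0 IDs matched the human tables used, and no sequence of these mouse genes was used.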

Additional observations from a re-analysis of the deposited data

How the results depend on the processing

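The number of the 8 genes past the threshold was 0 in edgeR's test, with 1 at an unadjusted p below 0.05, and was 0 under each of 15 alternatives, DESeq2 and limma-voom included. Of 119 single-gene values under these alternatives, 116 kept their direction and side of the threshold; the other 3 were those of Mmp14, at 0.12 without control replicate 3, 0.23 without overexpression replicate 1 and 0.05 without overexpression replicate 3, in a leave-one-out range of -0.61 to 0.23. The count of genes changed over the whole table, 2 in edgeR, was 4 with library totals only, 7 with limma-voom, 28 with DESeq2, 14 without the low-count filter, 0 to 14 with 1 library left out and 25 with control 2 and overexpression replicate 2 left out. The 14 came from leaving out overexpression replicate 2, and leaving out overexpression replicate 1 gave 1. In edgeR it was 0 when control replicate 1 was left out and when overexpression replicate 3 was, where 327 and 947 genes had an unadjusted p below 0.05. With the replicate number as a block edgeR called 0 genes, and 414 had an unadjusted p below 0.05. Under this block the log2 fold change was 0.80 for Timp1 (adjusted p = 0.95) and -1.59 for Mmp3 (adjusted p = 0.95), and no call among the 8 genes changed. Same-numbered libraries correlated in their deviations from the group means at -0.09, -0.34 and -0.10, and others at -0.16 to 0.25, so no library correlated best with its own number. Scaling by totals moved the median over all genes from 0.01 to -0.21 (log2) and turned the split at an unadjusted p below 0.05 from 452 higher and 343 lower to 114 and 585; beside that median Timp1 stood at 0.60, Timp2 at 0.03 and Timp3 at 0.07. With a mean of at least 5 CPM, Mmp3 was not tested. Depth limits Mmp3 most, with 2 to 33 counts per library. The 95% interval of a gene's fold change reached a median of 1.57-fold to either side.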
